A study of Mus musculus with 6 samples.

Results

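The Bcl2 family holds the proteins that keep a cell alive or open the mitochondrial path to its death. Described here are 10 of its genes: Bcl2, Bcl2l1, Mcl1, Bcl2a1b and Bcl2a1d, which promote survival, Bcl2l11, Pmaip1 and Bbc3, which belong to the BH3-only group that starts death, and Bax and Bak1, the effectors that carry it out. They were picked by symbol, and all 10 were found among the 32227 genes counted. Prosurvival proteins bind Bax and Bak and keep them from piercing the outer mitochondrial membrane, and BH3-only proteins occupy the prosurvival proteins or activate the effectors directly. In the thymus, Bcl2 is low in double-positive cells and rises in mature T cells under interleukin-7 signals, and Bim, the product of Bcl2l11, takes part in the deletion of self-reactive thymocytes and in the death of effector T cells at the end of a response.

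The study sequenced RNA of single CD8 T cells from the thymus, spleen and B16-OVA tumors, a mouse melanoma line that makes ovalbumin, of adult C57BL/6 mice with PIPseq v3, in 6 libraries, 1 for each genotype and tissue. Both genotypes carry the floxed allele Pdcd1fl/fl, and the group Pdcd1 cKO also carries E8I Cre, driven by a Cd8a enhancer that acts in CD8 T cells after positive selection, while the controls lack Cre. Earlier thymocytes and other cell types are outside the reach of this driver. Each thymus and spleen library came from 1 mouse, and each tumor library from pooled mice, on day 12 after injection.

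A unique molecular identifier (UMI) marks 1 captured RNA molecule, and a level is the UMIs of a gene for every 1000000 UMIs of the cells (CPM). Values are given with the library labelled Pdcd1fl/fl first and the library labelled Pdcd1 cKO second. Cells were kept with 500 genes or more, 1000 UMIs or more and no more than 20% of UMIs mitochondrial, which left 1067 of 1067 and 2635 of 2674 barcodes in thymus, 1478 of 6929 and 4928 of 4963 in spleen and 456 of 457 and 561 of 561 in tumor. The loss was very unequal in the spleen, where the median before this filter was 728 and 1611 UMIs. The UMIs of the kept cells summed to 6389966 and 19143524 in thymus, 2220981 and 8923997 in spleen and 9380835 and 7924590 in tumor, with a median per cell of 4361 and 5417 in thymus, 1320.5 and 1615 in spleen and 13809.5 and 9510 in tumor. No barcode was shared by kept cells of any pair of libraries. With 1 library per group there were no replicates and no test was made. All intervals are 95% intervals and cover counting error only, not the difference between mice. Levels are shares of all UMIs, so a gene's RNA per cell and the total RNA captured per cell cannot be told apart.

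The tissue labels were checked against marker lists. The 10 markers of immature thymocytes, of which Dntt was the most abundant in both thymic libraries, summed to 1495 and 1302 CPM in thymus, 60.8 and 83.7 in spleen and 50.1 and 33.6 in tumor, and Rag1 and Rag2 were at 0 in the spleen and tumor libraries. The 5 melanocyte or melanoma markers summed to 4.85 and 4.39 CPM in thymus, 2.70 and 3.03 in spleen and 8636 and 4809 in tumor. By the lineage list with the most UMIs, 287 of the kept tumor cells were of the T cell, 142 of the melanoma and 27 of the myeloid list under the label Pdcd1fl/fl, and 468 of the kept tumor cells were of the T cell, 58 of the melanoma and 35 of the myeloid list under the label Pdcd1 cKO. Beside all kept cells a CD8 set was used, made of kept cells with at least 1 UMI of Cd8a or Cd8b1 and more UMIs of 8 T cell markers than of any of 5 other lineage lists. It held 589 and 1753 cells in thymus, 863 and 3878 in spleen and 274 and 456 in tumor. Within the tumor CD8 set the melanoma list still summed to 238 and 166 CPM, led by Dct and Pmel, and the myeloid list of 12 markers to 61.1 and 112 CPM. The 4 NK cell markers, led by Fcer1g in both libraries, summed there to 20.9 CPM with Ncr1 at 0 and to 99.3 CPM, and the part of this difference in the tumor ratios of Bcl2, Bcl2l11 and the Bcl2a1 copies between labels was not tested.

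The targeted gene was read before the family. Pdcd1 had 12 and 131 UMIs in thymus, 1 and 104 in spleen and 717 and 808 in tumor, or 1.88 and 6.84 CPM in the thymus, 0.45 and 11.7 CPM in the spleen and 76.4 and 102 CPM in the tumor. It was higher in the library labelled Pdcd1 cKO in all 3 tissues, by a log2 ratio of 1.87 (1.01 to 2.85) in the thymus, 4.69 (2.18 to 10.01) in the spleen and 0.42 (0.27 to 0.56) in the tumor. In the CD8 set of the tumor the order was the opposite, 188 and 154 CPM. Pdcd1 RNA thus goes against the labels in the thymus and the spleen. In the tumor CD8 set 70.4% and 64.9% of cells had Pdcd1 UMIs, so its RNA was not lost there under Pdcd1 cKO. Another measure, the sum of 6 cytotoxic markers, was higher under the label Pdcd1 cKO in all 3 tissues, at 538 and 1189 CPM in thymus, 5321 and 10027 in spleen and 1287 and 4465 in tumor. By flow cytometry, the paper reports loss of PD-1 in thymic CD8 T cells of Pdcd1 cKO mice, and PD-1 deficiency in CD8 T cells of their tumors. It also reports more thymic CD8 T cells with NKG7 and granzyme B in these mice, the direction that the cytotoxic sums have under the labels. An exchange of labels was not tested, and every direction between genotypes below rests on the labels alone. Which exons the reads cover cannot be told from counts per gene, so RNA from a deleted allele was not tested for.

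**Figure D1:**
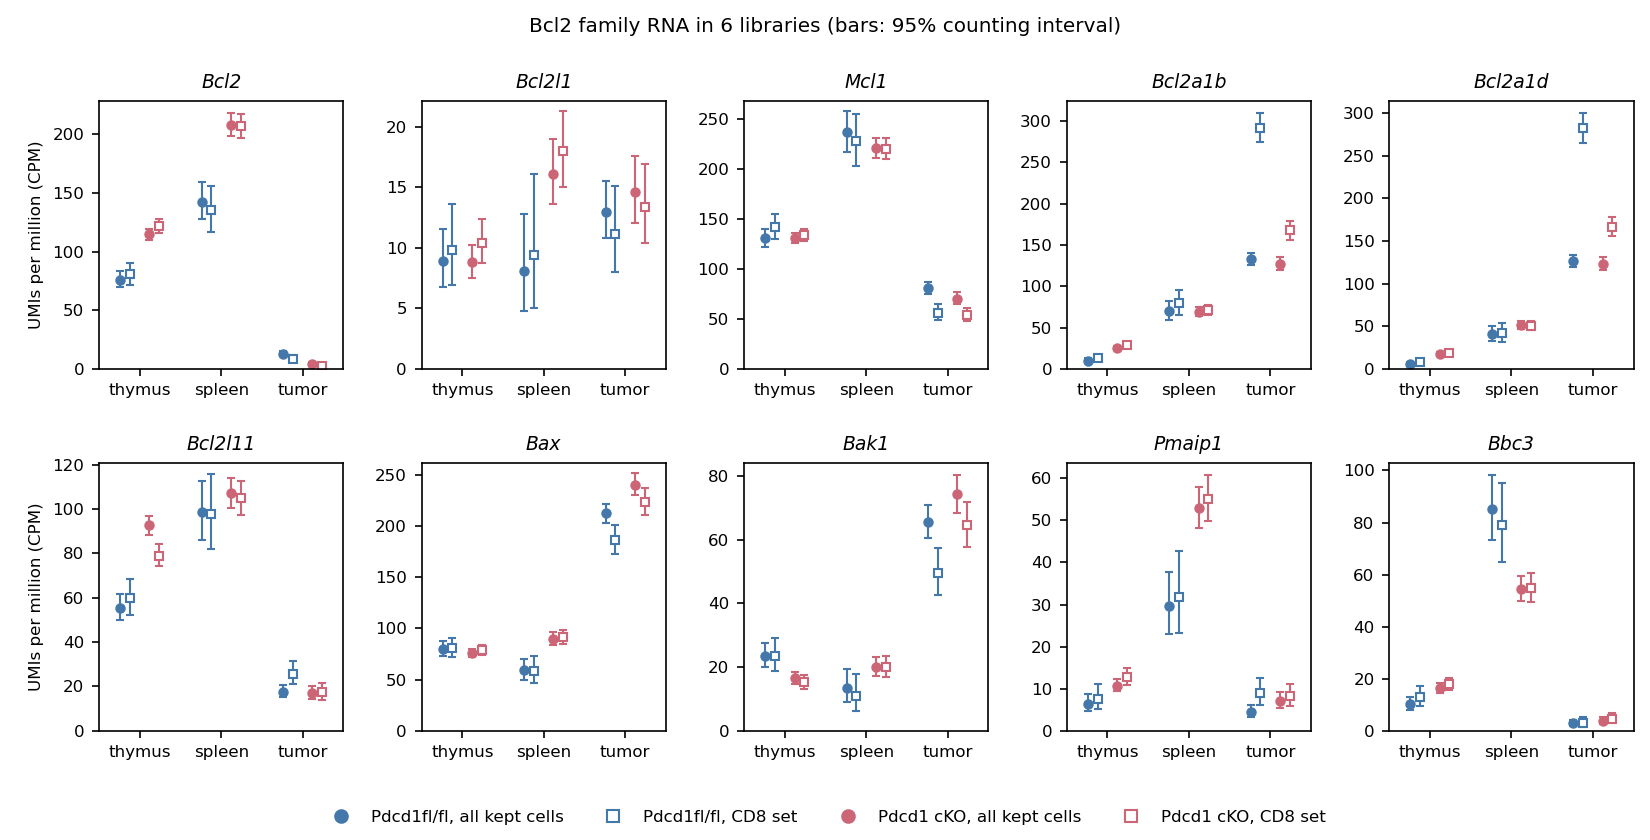
Level of each of the 10 genes in CPM (vertical axis) by tissue, with filled circles for all kept cells, open squares for the CD8 set and bars for 95% counting intervals. Bcl2, Mcl1, Bcl2l11 and Bbc3 are lowest in the tumor libraries, and Bcl2a1b, Bcl2a1d, Bax and Bak1 are highest there.

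Bcl2 (ENSMUSG00000057329, chr1:106465908-106642060, minus strand, GRCm39) encodes the founding prosurvival member. It was at 76.1 and 115 CPM in the thymus, 143 and 208 CPM in the spleen and 13.1 and 3.91 CPM in the tumor. The spleen was high, the thymus intermediate and the tumor low, and no neighbouring intervals overlapped in the order of the 6 libraries, from tumor Pdcd1 cKO up to spleen Pdcd1 cKO. The log2 ratio of the library labelled Pdcd1 cKO over the library labelled Pdcd1fl/fl, in which 1 stands for a 2-fold difference, was 0.59 (0.45 to 0.74) in the thymus, 0.54 (0.37 to 0.72) in the spleen and -1.74 (-2.36 to -1.17) in the tumor. So the label Pdcd1 cKO went with a higher level in thymus and spleen and a lower level in the tumor, though in the thymus the ratio was smaller among cycling and non-cycling cells taken apart. Within the CD8 set Bcl2 was at 80.7 and 122 CPM in the thymus, 135 and 207 CPM in the spleen and 8.14 and 2.33 CPM in the tumor, the tumor values resting on 30 and 12 UMIs. The ratios there were 0.59 (0.41 to 0.78) in the thymus, 0.61 (0.39 to 0.84) in the spleen and -1.80 (-2.91 to -0.80) in the tumor, the same signs as in all kept cells. In this tumor set 6 markers of mature T cells summed to 884 and 573 CPM and the 6 cytotoxic markers to 3017 and 6436 CPM. The part of these differences in the tumor ratios of the members was not tested. In the tumor library labelled Pdcd1fl/fl, 89 of the 123 Bcl2 UMIs lay in cells of the melanoma list, at 16.8 CPM against 8.35 CPM in cells of the T cell list. In the tumor library labelled Pdcd1 cKO, the same cells had 7.0 CPM against 2.29 CPM. Bcl2 was thus lower in cells of the T cell list than in cells of the melanoma list in both libraries, and the part of free RNA from other cells in the CD8 set was not tested.

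Thymic cells were split by Dntt, which encodes the terminal transferase of cells that rearrange their receptor genes, and by the sum of Cd8a and Cd8b1, each at 0 or at least 1 UMI. This gave 387, 349, 240 and 91 cells under the label Pdcd1fl/fl, and 658, 797, 956 and 224 under Pdcd1 cKO, in the order Dntt+ CD8-, Dntt+ CD8+, Dntt- CD8+ and Dntt- CD8-. The median depth in that order was 4808, 6090, 3500.5, 3448 UMIs per cell under Pdcd1fl/fl and 5836.5, 6491, 4905, 3875.5 under Pdcd1 cKO, so a deeper cell was more often in a Dntt+ class. The classes were checked by markers: Ccr7, a gene of mature thymocytes, rose from 49.8 CPM in Dntt+ CD8- to 476 CPM in Dntt- CD8+ cells under Pdcd1fl/fl and from 31.8 to 707 CPM under Pdcd1 cKO. Cd4 was at 3.71 CPM or less in all 8 class sums, so the Dntt+ CD8+ class is not called double-positive. In Dntt- CD8- cells Ccr7 was at 151 and 138 CPM. Rag1, an immature thymocyte marker, was at 35.6 and 19.8 CPM there, against 38.0 and 43.5 CPM in Dntt+ CD8- cells. The Dntt- CD8- class is therefore not called mature.

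Bcl2 was at 65.4, 52.0, 161 and 98.7 CPM in the 4 classes under Pdcd1fl/fl and at 85.4, 89.4, 169 and 186 CPM under Pdcd1 cKO. The Dntt- classes were the higher ones under both labels. Under Pdcd1fl/fl the Dntt- CD8- level rests on 36 UMIs, and its interval overlapped that of Dntt+ CD8- cells. The log2 ratio of Dntt- CD8+ over Dntt+ CD8- was 1.30 (0.97 to 1.63) under the label Pdcd1fl/fl and 0.99 (0.82 to 1.15) under Pdcd1 cKO. With classes assigned on cells thinned to 1000 UMIs it was 0.78 under Pdcd1fl/fl, and in non-cycling cells 0.76, below 2-fold in both cases but of the same sign. Between labels, Bcl2 differed by 0.38 (0.12 to 0.66) in Dntt+ CD8-, 0.78 (0.52 to 1.06) in Dntt+ CD8+, 0.07 (-0.18 to 0.33) in Dntt- CD8+ and 0.92 (0.39 to 1.47) in Dntt- CD8- cells. The 4 NK cell markers were at 19.2 and 77.2 CPM in the Dntt- CD8- class, and their part in its Bcl2 difference was not tested. In the Dntt+ CD8+ class 6 markers of mature T cells were at 377 and 673 CPM. The 6 cytotoxic markers were at 331 and 917 CPM there, and 6 cell-cycle genes at 904 and 654.5 CPM. Their part in the differences of Bcl2 and of the other members in that class was not tested. In the Dntt- CD8+ class a difference between labels was thus not detectable at this depth. The share of that class among thymic cells differed between the libraries, 240 of 1067 against 956 of 2635 cells, and its part in the ratio over all kept thymic cells was not tested. Cycling cells, those with at least 3 UMIs of 6 cell-cycle genes, had less Bcl2 than the rest, at a log2 ratio of -1.14 (-1.40 to -0.87) under the label Pdcd1fl/fl and -1.43 (-1.58 to -1.28) under Pdcd1 cKO, and made up 49.0% and 24.7% of thymic cells. Split in this way, chosen after seeing the data, Bcl2 differed between labels by 0.11 (-0.12 to 0.35) in cycling and 0.40 (0.22 to 0.59) in non-cycling cells of the thymus, and by -0.01 (-0.35 to 0.33) and 0.39 (0.16 to 0.61) in those of its CD8 set. In cycling cells a difference was thus not detectable, and in non-cycling cells it was below that over all cells.

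**Figure D2:**
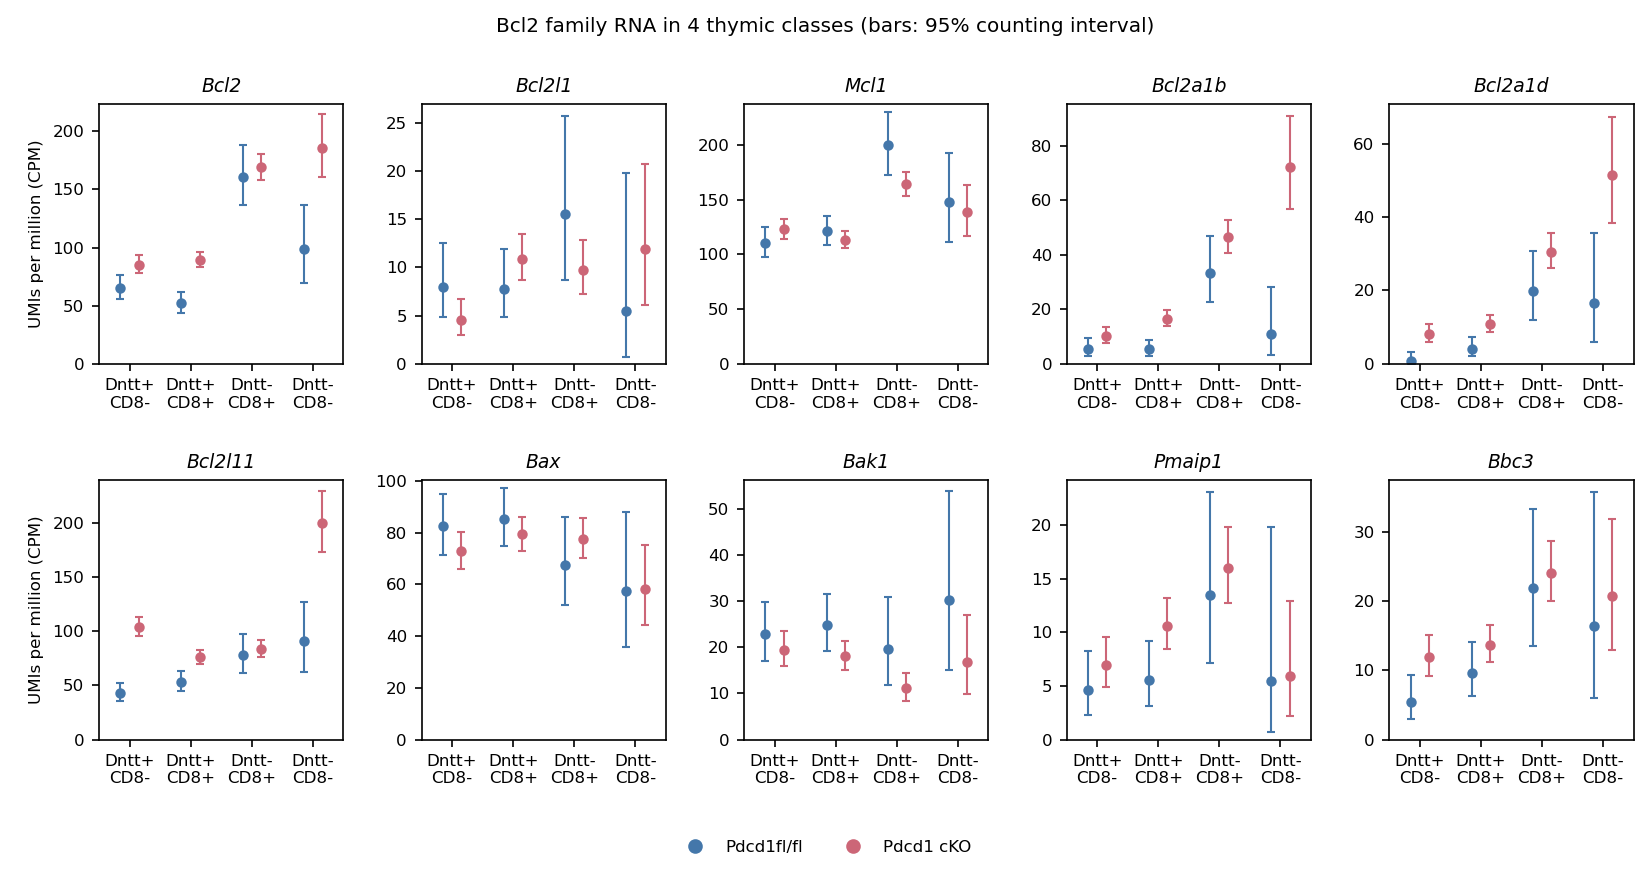
Level of each of the 10 genes in CPM (vertical axis) in the 4 thymic classes set by Dntt and by Cd8a with Cd8b1, in blue for the library labelled Pdcd1fl/fl and in red for the library labelled Pdcd1 cKO, with bars for 95% counting intervals. Under both labels Bcl2, Bcl2a1b and Bcl2a1d are higher in Dntt- CD8+ than in Dntt+ CD8- cells, and Bcl2l11 reaches 200.0 CPM in Dntt- CD8- cells under Pdcd1 cKO.

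Between tissues of the same label, Bcl2 in the CD8 set was higher in spleen than in thymus, by a log2 ratio of 0.75 (0.47 to 1.02) under the label Pdcd1fl/fl and 0.77 (0.66 to 0.87) under Pdcd1 cKO. With Dntt- CD8+ cells as the thymic side, an alternative chosen after seeing the data, the ratio was -0.25 (-0.56 to 0.07) under the label Pdcd1fl/fl and 0.29 (0.17 to 0.41) under Pdcd1 cKO, so the sign under Pdcd1fl/fl turned and the difference was not detectable there. Tumor over spleen gave -4.06 (-4.66 to -3.49) under the label Pdcd1fl/fl and -6.47 (-7.43 to -5.66) under Pdcd1 cKO, the lowest ratio of the 10 genes under Pdcd1 cKO. Bcl2 was thus low in the tumor CD8 set under both labels, and lower under Pdcd1 cKO, where the interval did not overlap that under Pdcd1fl/fl. Bcl2 spans 176153 bases. As a description chosen after seeing the data, genes of at least 100000 bases had a median tumor over spleen ratio of -1.63 (517 genes) and -1.41 (1249 genes), against -0.04 and -0.74 for shorter genes, and 5.61% and 0% of the long genes lay below Bcl2. The part of gene span in the Bcl2 ratio was not tested.

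Bcl2l1 (ENSMUSG00000007659, chr2:152622582-152673655, minus strand) encodes Bcl-xL, the prosurvival protein known for keeping double-positive thymocytes alive. It was at 8.92 and 8.83 CPM in the thymus, 8.10 and 16.1 CPM in the spleen and 13.0 and 14.6 CPM in the tumor, on as few as 18 UMIs. All 5 pairs of neighbours in the order of levels had overlapping intervals, but the spleen library labelled Pdcd1 cKO, the highest, was clear of the 2 thymic libraries and of the spleen library labelled Pdcd1fl/fl. Its genotype ratio was -0.01 (-0.46 to 0.44) in the thymus, 0.99 (0.28 to 1.79) in the spleen and 0.17 (-0.21 to 0.55) in the tumor, so only the spleen had an interval clear of 0 and the thymic value turned to 0.17 with mitochondrial, ribosomal protein and Malat1 UMIs left out of the total. The spleen value rests on 18 and 144 UMIs. It passed 2-fold with no cell filter (1.12), with a stricter one (2.41) and without the 1 cell of each library with the most Bcl2l1 UMIs (1.13). In the thymic classes Bcl2l1 was at 8.02, 7.80, 15.6 and 5.48 CPM under Pdcd1fl/fl and 4.57, 10.9, 9.75 and 11.9 CPM under Pdcd1 cKO, with Dntt- CD8+ over Dntt+ CD8- at 0.96 (-0.12 to 2.01) under the label Pdcd1fl/fl and 1.09 (0.37 to 1.85) under Pdcd1 cKO. The interval under Pdcd1fl/fl held 0, and with classes from thinned cells the one under Pdcd1 cKO was 0.21. For the CD8 set, tumor over spleen was 0.24 (-0.69 to 1.27) under the label Pdcd1fl/fl and -0.42 (-0.87 to 0.01) under Pdcd1 cKO, the smallest shift of the 10 genes between these tissues, and the sign under Pdcd1 cKO turned to 0.41 when scaled by the median of ratios over genes.

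The share of Bcl2 among the UMIs of Bcl2 and Bcl2l1 together does not depend on the library total and is read only across libraries. It was 89.5% and 92.9% in thymus, 94.6% and 92.8% in spleen and 50.2% and 21.1% in tumor. The thymus and spleen libraries stood high and the tumor libraries far below, with Clopper-Pearson intervals of 43.8% to 56.6% and 14.8% to 28.6% that did not overlap each other. Across the CD8 set the share was 89.1% and 92.1% in thymus, 93.5% and 92.0% in spleen and 42.3% and 14.8% in tumor. The tumor library labelled Pdcd1 cKO was the lowest in both sets of cells.

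Mcl1 (ENSMUSG00000038612, chr3:95566026-95570487, plus strand) encodes a prosurvival protein with a short half-life that T cells need at every stage. It was at 131 and 131 CPM in the thymus, 237 and 221 CPM in the spleen and 80.8 and 70.4 CPM in the tumor. Spleen was high, thymus intermediate and tumor low, and within each tissue the intervals of the 2 labels overlapped. The genotype ratio was 0.00 (-0.11 to 0.12) in the thymus, -0.10 (-0.24 to 0.04) in the spleen and -0.20 (-0.36 to -0.04) in the tumor. No difference was detectable in thymus and spleen, and the small tumor ratio turned to 0.02 under scaling by the median of ratios and was -0.07 (-0.33 to 0.20) in the CD8 set. Over the CD8 set Mcl1 was at 142 and 134 CPM in the thymus, 228 and 221 CPM in the spleen and 56.5 and 53.8 CPM in the tumor. Spleen over thymus was 0.68 (0.47 to 0.89) under the label Pdcd1fl/fl and 0.72 (0.62 to 0.82) under Pdcd1 cKO, and tumor over spleen -2.01 (-2.27 to -1.76) under the label Pdcd1fl/fl and -2.04 (-2.22 to -1.85) under Pdcd1 cKO, so the 2 labels gave nearly the same ratios in both steps when scaled by total UMIs. Scaled by the median of ratios, they were 1.11 and 0.75 for spleen over thymus and -1.85 and -1.20 for tumor over spleen. In the thymic classes Mcl1 was at 111, 121, 200.5 and 148 CPM under Pdcd1fl/fl and 123, 113, 164 and 139 CPM under Pdcd1 cKO, with Dntt- CD8+ over Dntt+ CD8- at 0.86 (0.58 to 1.13) under the label Pdcd1fl/fl and 0.42 (0.27 to 0.57) under Pdcd1 cKO. Dntt- CD8+ cells were the highest class under both labels, with intervals that overlapped those of Dntt- CD8- cells. Between labels Mcl1 differed by -0.12 (-0.29 to 0.05) in cycling and -0.17 (-0.33 to -0.01) in non-cycling cells of the thymus. In the tumor, cells of the myeloid list, 27 and 35 in number, had 594 and 343 CPM of Mcl1 against 57.6 and 54.0 CPM in cells of the T cell list.

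Bcl2a1b (ENSMUSG00000089929, chr9:89081262-89089889, plus strand) and Bcl2a1d (ENSMUSG00000099974, chr9:88605338-88613967, minus strand) are near-identical mouse copies of the gene for A1, a prosurvival protein that T cells induce on activation through NF-kB. Their coding sequences of 519 bases differ at 6 positions (98.8% identity), and 35.5% of the 91-base stretches of the Bcl2a1b transcript, the length of the read, also occur in that of Bcl2a1d. A related copy, Bcl2a1a, differs from Bcl2a1b at 11 and from Bcl2a1d at 7 positions. The split of reads among the copies is therefore uncertain, and their sum is given beside each. The first 60 coding bases (GENCODE vM39 transcripts, 5′ to 3′) are printed because they hold 6 of the 12 coding positions at which the 3 copies differ, which are in capitals.
Bcl2a1b: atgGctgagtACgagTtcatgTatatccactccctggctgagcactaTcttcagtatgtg
Bcl2a1d: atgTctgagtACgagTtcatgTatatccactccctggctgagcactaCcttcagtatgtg
Bcl2a1a: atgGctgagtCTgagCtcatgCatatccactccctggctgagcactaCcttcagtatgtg

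Bcl2a1b was at 9.86 and 25.6 CPM in the thymus, 70.2 and 69.4 CPM in the spleen and 133 and 127 CPM in the tumor. Bcl2a1d was at 5.95 and 17.4 CPM in the thymus, 40.5 and 51.2 CPM in the spleen and 126 and 123 CPM in the tumor, and the sum of the 3 copies at 17.4 and 48.0 CPM in the thymus, 127 and 136 CPM in the spleen and 315 and 316 CPM in the tumor. All 3 measures rose from thymus to spleen to tumor under both labels, and in the spleen and the tumor the intervals of the 2 labels overlapped. The genotype ratio of the sum was 1.46 (1.18 to 1.76) in the thymus, 0.10 (-0.08 to 0.30) in the spleen and 0.00 (-0.07 to 0.08) in the tumor, and that of Bcl2a1b was 1.38 (1.00 to 1.78) in the thymus, -0.02 (-0.27 to 0.24) in the spleen and -0.06 (-0.18 to 0.06) in the tumor. For Bcl2a1d it was 1.55 (1.07 to 2.08) in the thymus, 0.34 (0.01 to 0.68) in the spleen and -0.04 (-0.16 to 0.08) in the tumor, and the tumor values of the 2 copies turned to 0.16 and 0.18 under scaling by the median of ratios. The thymus was thus the 1 tissue with a difference past 2-fold, higher under the label Pdcd1 cKO over all kept cells, and the spleen value of the sum turned to -0.03 with mitochondrial, ribosomal protein and Malat1 UMIs left out of the total. In the CD8 set the sum was at 22.4 and 52.4 CPM in the thymus, 137 and 138 CPM in the spleen and 696 and 423 CPM in the tumor, with genotype ratios of 1.22 (0.89 to 1.57) in the thymus, 0.01 (-0.22 to 0.24) in the spleen and -0.72 (-0.80 to -0.64) in the tumor. The spleen value turned to -0.16 under scaling by the median of ratios. The tumor ratio, near 0 in all kept cells, was negative in the CD8 set, where both copies were lower under Pdcd1 cKO, Bcl2a1b at -0.80 (-0.93 to -0.67) and Bcl2a1d at -0.76 (-0.89 to -0.63). The cells counted differ between these 2 sets: cells of the melanoma list, 142 and 58 in number, had 14.8 and 14.0 CPM of the sum against 689 and 420.2 CPM in cells of the T cell list. Within the tumor CD8 set the sum differed between labels by -0.78 (-0.90 to -0.66) in cycling and -0.63 (-0.75 to -0.52) in non-cycling cells, a split chosen after seeing the data, so it was lower under Pdcd1 cKO in both. The NK cell markers went the other way in this set, 20.9 against 99.3 CPM, and their part was not tested.

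In the thymic classes the sum of the Bcl2a1 copies was at 7.17, 10.8, 55.0 and 32.9 CPM under Pdcd1fl/fl and 20.7, 30.4, 84.8 and 139.6 CPM under Pdcd1 cKO. Dntt- cells were high and Dntt+ cells low under both labels. Dntt- CD8+ over Dntt+ CD8- was 2.94 (2.13 to 3.82) under the label Pdcd1fl/fl and 2.04 (1.74 to 2.35) under Pdcd1 cKO for the sum. For Bcl2a1b it was 2.60 (1.63 to 3.65) under the label Pdcd1fl/fl and 2.18 (1.76 to 2.63) under Pdcd1 cKO, and for Bcl2a1d 4.55 (2.5 to 7.69) under the label Pdcd1fl/fl and 1.93 (1.44 to 2.45) under Pdcd1 cKO, the value under Pdcd1fl/fl resting on 19 against 2 UMIs. With classes from thinned cells Bcl2a1b under Pdcd1fl/fl was 0.91. The sum was higher under the label Pdcd1 cKO in each class, by 1.53 (0.78 to 2.36), 1.5 (0.94 to 2.11), 0.62 (0.21 to 1.06) and 2.09 (1.24 to 3.07) in the order given above. The Dntt- CD8- class of the library labelled Pdcd1 cKO also held more RNA of 4 NK cell markers, 77.2 CPM led by Fcer1g with none of the 4 at 0, against 19.2 CPM led by Klrb1c with Ncr1 and Fcer1g at 0 under Pdcd1fl/fl, and the part of such cells in its Bcl2a1 level was not tested. Cycling thymic cells had less of the sum than the rest, at -2.56 (-3.25 to -1.91) under the label Pdcd1fl/fl and -2.88 (-3.23 to -2.55) under Pdcd1 cKO. Between labels Bcl2a1b differed by 0.33 (-0.52 to 1.24) in cycling and 0.99 (0.55 to 1.46) in non-cycling cells, Bcl2a1d by 1.33 (0.04 to 2.89) in cycling and 0.95 (0.42 to 1.53) in non-cycling cells, a split chosen after seeing the data. The 2-fold difference over all kept thymic cells was thus not reached by either copy in non-cycling cells, but both were just short of it, with intervals clear of 0. Cycling and non-cycling cells of the thymic CD8 set gave 0.68 (-0.49 to 2.03) and 0.71 (0.23 to 1.24) for Bcl2a1b and 0.10 (-1.37 to 1.77) and 0.80 (0.19 to 1.47) for Bcl2a1d, none past 2-fold. Within the CD8 set, spleen over thymus was 2.61 (2.23 to 3.0) under the label Pdcd1fl/fl and 1.39 (1.25 to 1.54) under Pdcd1 cKO, or 1.31 (0.87 to 1.78) under the label Pdcd1fl/fl and 0.70 (0.54 to 0.87) under Pdcd1 cKO against Dntt- CD8+ thymic cells, and tumor over spleen was 2.35 (2.13 to 2.57) under the label Pdcd1fl/fl and 1.62 (1.51 to 1.73) under Pdcd1 cKO. Each step was thus upward under both labels.

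**Figure D3:**
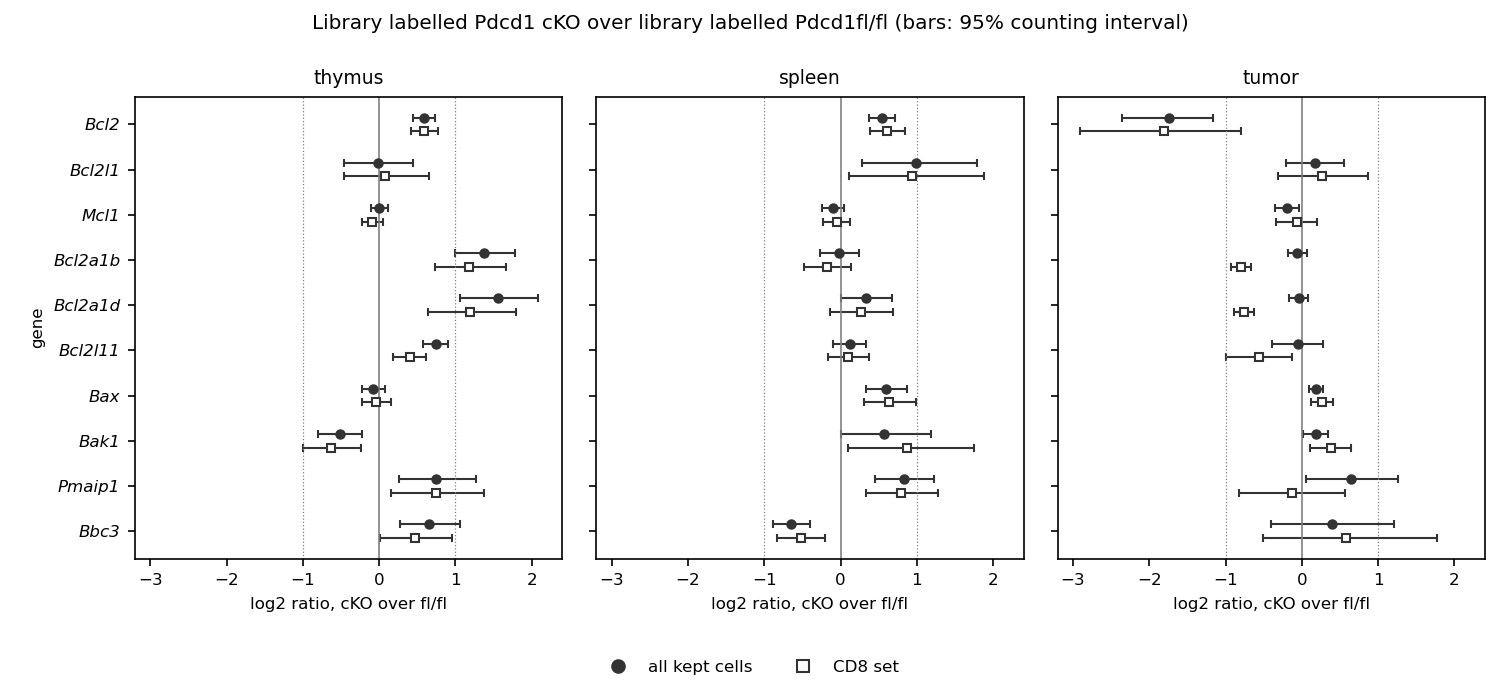
Log2 ratio (horizontal axis) of the library labelled Pdcd1 cKO over the library labelled Pdcd1fl/fl for each gene in each tissue, with filled circles for all kept cells, open squares for the CD8 set, bars for 95% counting intervals and dotted lines at 2-fold. Bcl2 lies to the right of 0 in thymus and spleen and at -1.74 in all kept tumor cells.

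Bcl2l11 (ENSMUSG00000027381, chr2:127967958-128004476, plus strand) encodes Bim, the BH3-only protein that Bcl2 holds in check in T cells. It was at 55.4 and 92.6 CPM in the thymus, 98.6 and 107 CPM in the spleen and 17.6 and 16.9 CPM in the tumor. Thymus and spleen were high and tumor low, and the thymic library labelled Pdcd1fl/fl stood apart below the other thymic and splenic libraries. The genotype ratio was 0.74 (0.58 to 0.91) in the thymus, 0.12 (-0.09 to 0.34) in the spleen and -0.06 (-0.40 to 0.28) in the tumor. Only the thymus had an interval clear of 0, and the spleen and tumor values changed sign under scaling by the median of ratios (-0.06 and 0.17). For the CD8 set Bcl2l11 was at 59.9 and 79.0 CPM in the thymus, 97.8 and 105 CPM in the spleen and 25.8 and 17.5 CPM in the tumor, with genotype ratios of 0.40 (0.19 to 0.62) in the thymus, 0.10 (-0.17 to 0.37) in the spleen and -0.56 (-0.99 to -0.13) in the tumor. There the tumor ratio was negative, with an interval clear of 0, the thymic ratio smaller than in all kept cells, and the spleen value turned to -0.07 under scaling by the median of ratios. The thymic classes were at 43.0, 53.5, 77.9 and 90.5 CPM under Pdcd1fl/fl and 104, 75.8, 83.7 and 200.0 CPM under Pdcd1 cKO. Dntt+ CD8- cells were the lowest class under Pdcd1fl/fl but not under Pdcd1 cKO, and Dntt- CD8- cells were the highest under both labels. Under Pdcd1fl/fl the Dntt- CD8- level rests on 33 UMIs, and its interval overlapped that of Dntt- CD8+ cells. Dntt- CD8+ over Dntt+ CD8- was 0.86 (0.41 to 1.30) under the label Pdcd1fl/fl and -0.32 (-0.50 to -0.13) under Pdcd1 cKO, with opposite signs, a difference that was not tested. Scaled by the median of ratios, the values were 0.94 and -0.05, so the fall under Pdcd1 cKO was then much smaller. Between labels Bcl2l11 differed by 1.28 (0.97 to 1.59) in Dntt+ CD8-, 0.50 (0.24 to 0.78) in Dntt+ CD8+, 0.10 (-0.25 to 0.48) in Dntt- CD8+ and 1.14 (0.61 to 1.72) in Dntt- CD8- cells. The largest difference was thus in a class without Cd8a or Cd8b1 UMIs, and none was detectable in the Dntt- CD8+ class. In the Dntt+ CD8- class Il2ra was at 114 and 182 CPM and the 6 cycling genes at 883 and 600 CPM. The 4 NK cell markers were at 0.844 and 13.2 CPM there, and at 19.2 and 77.2 CPM in the Dntt- CD8- class. The part of these in the Bcl2l11 differences was not tested. By cycling, Bcl2l11 differed between labels by 0.78 (0.54 to 1.02) in cycling and 0.49 (0.26 to 0.74) in non-cycling cells of the thymus. Across the CD8 set, spleen over thymus was 0.71 (0.39 to 1.02) under the label Pdcd1fl/fl and 0.41 (0.27 to 0.54) under Pdcd1 cKO and tumor over spleen -1.92 (-2.32 to -1.53) under the label Pdcd1fl/fl and -2.58 (-2.91 to -2.27) under Pdcd1 cKO.

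Bcl2 and Bim oppose each other, and the share of Bcl2 among the UMIs of Bcl2 and Bcl2l11 was 57.9% and 55.3% in thymus, 59.1% and 66.0% in spleen and 42.7% and 18.8% in tumor. It was highest in the spleen library labelled Pdcd1 cKO and lowest in the tumor library labelled Pdcd1 cKO. Over the CD8 set the share was 57.4% and 60.6% in thymus, 58.1% and 66.4% in spleen and 24.0% and 11.8% in tumor, and the tumor libraries were again the low ones. In the thymic classes it was 60.3%, 49.3%, 67.4% and 52.2% under Pdcd1fl/fl, and 45.0%, 54.1%, 66.9% and 48.2% under Pdcd1 cKO. Dntt- CD8+ cells had the highest share under both labels, with intervals of 60.9% to 73.4% and 64.3% to 69.5%. Under Pdcd1fl/fl that interval overlapped those of the Dntt+ CD8- class, 54.0% to 66.3%, and of the Dntt- CD8- class, 39.8% to 64.4%, and under Pdcd1 cKO it was clear of the other 3.

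Pmaip1 (ENSMUSG00000024521, chr18:66591604-66598636, plus strand) encodes Noxa, a BH3-only protein that binds Mcl1 and A1. It was at 6.42 and 10.8 CPM in the thymus, 29.7 and 52.9 CPM in the spleen and 4.58 and 7.19 CPM in the tumor, with 41 to 472 UMIs per library. Both spleen libraries were high, with intervals clear of the other 4. The genotype ratio was 0.75 (0.26 to 1.27) in the thymus, 0.83 (0.46 to 1.23) in the spleen and 0.65 (0.05 to 1.26) in the tumor, positive in all 3 tissues with intervals clear of 0. In the CD8 set the tumor value was -0.13 (-0.83 to 0.57), so the sign of the tumor ratio depended on the cells taken, and thymus and spleen were 0.74 (0.15 to 1.37) and 0.79 (0.34 to 1.28). The thymic classes were at 4.64, 5.57, 13.5 and 5.48 CPM under Pdcd1fl/fl and 6.95, 10.6, 16.0 and 5.94 CPM under Pdcd1 cKO, highest in Dntt- CD8+ cells under both labels. Under Pdcd1fl/fl these rest on 11, 15, 13 and 2 UMIs, and the Dntt- CD8+ interval overlapped those of all other classes. Under Pdcd1 cKO it overlapped those of Dntt+ CD8+ and Dntt- CD8- cells. Dntt- CD8+ over Dntt+ CD8- was 1.54 (0.27 to 2.84) under the label Pdcd1fl/fl and 1.20 (0.63 to 1.80) under Pdcd1 cKO, and under Pdcd1 cKO it was 0.61 with classes from thinned cells and 0.95 in non-cycling cells. Between labels Pmaip1 differed by 0.70 (-0.16 to 1.65) in cycling and 0.31 (-0.29 to 0.97) in non-cycling cells of the thymus, with both intervals holding 0. Spleen over thymus in the CD8 set was 2.06 (1.34 to 2.79) under the label Pdcd1fl/fl and 2.11 (1.84 to 2.38) under Pdcd1 cKO, and tumor over spleen -1.83 (-2.53 to -1.15) under the label Pdcd1fl/fl and -2.76 (-3.25 to -2.30) under Pdcd1 cKO. The spleen was thus above both other tissues by more than 2-fold under both labels.

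Bbc3 (ENSMUSG00000002083, chr7:16042318-16052130, plus strand) encodes Puma, a BH3-only protein induced by p53 and, when cytokines are lacking, by FoxO factors. It was at 10.3 and 16.3 CPM in the thymus, 85.1 and 54.5 CPM in the spleen and 2.88 and 3.79 CPM in the tumor. The spleen was high, the thymus lower and the tumor lowest, at 27 and 30 UMIs, and only the tumor libraries had overlapping intervals. The genotype ratio was 0.66 (0.27 to 1.06) in the thymus, -0.64 (-0.89 to -0.39) in the spleen and 0.40 (-0.40 to 1.20) in the tumor, so thymus and spleen had opposite signs. With a stricter cell filter (1000 genes or more, 2000 UMIs or more, no more than 10% of UMIs mitochondrial) the spleen value was 0.03, and its sign turned. That filter left out most of the kept cells of both spleen libraries, so its spleen values rest on fewer UMIs. Within the CD8 set the ratios were 0.47 (0.01 to 0.96) in the thymus, -0.52 (-0.83 to -0.21) in the spleen and 0.58 (-0.51 to 1.77) in the tumor. The signs were those of all kept cells. The thymic classes were at 5.48, 9.66, 21.8 and 16.4 CPM under Pdcd1fl/fl and 11.9, 13.7, 24.0 and 20.8 CPM under Pdcd1 cKO, and Dntt- CD8+ over Dntt+ CD8- was 1.99 (0.93 to 3.11) under the label Pdcd1fl/fl and 1.01 (0.57 to 1.47) under Pdcd1 cKO. In non-cycling cells the value under Pdcd1 cKO was 0.86. Between labels Bbc3 differed by 0.68 (0.04 to 1.36) in cycling and 0.25 (-0.24 to 0.78) in non-cycling cells of the thymus, so a difference was not detectable in the latter. For the CD8 set, spleen over thymus was 2.62 (2.11 to 3.14) under the label Pdcd1fl/fl and 1.62 (1.38 to 1.86) under Pdcd1 cKO, and tumor over spleen -4.72 (-5.77 to -3.83) under the label Pdcd1fl/fl and -3.62 (-4.29 to -3.01) under Pdcd1 cKO. The tumor over spleen value under Pdcd1fl/fl rests on 11 tumor UMIs and was the lowest of the 10 genes under that label.

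Bax (ENSMUSG00000003873, chr7:45111015-45116325, minus strand) encodes an effector that moves from the cytosol to the mitochondrial membrane. It was at 80.1 and 76.0 CPM in the thymus, 59.4 and 90.1 CPM in the spleen and 212 and 241 CPM in the tumor. The tumor libraries were high and the other 4 lay between 59.4 and 90.1 CPM. The genotype ratio was -0.08 (-0.22 to 0.07) in the thymus, 0.60 (0.33 to 0.88) in the spleen and 0.18 (0.09 to 0.27) in the tumor. Spleen and tumor were higher under the label Pdcd1 cKO, and the thymic value, whose interval held 0, changed sign to 0.11 when mitochondrial, ribosomal protein and Malat1 UMIs were left out of the total. The thymic classes were at 82.7, 85.4, 67.5 and 57.6 CPM under Pdcd1fl/fl and 72.9, 79.4, 77.6 and 58.4 CPM under Pdcd1 cKO, and Dntt- CD8+ over Dntt+ CD8- was -0.29 (-0.72 to 0.12) under the label Pdcd1fl/fl and 0.09 (-0.11 to 0.29) under Pdcd1 cKO. No difference between these 2 classes was detectable at this depth when scaled by total UMIs. Scaled by the median of ratios, the values were -0.21 and 0.35, the latter above the interval given. Bax was lowest in Dntt- CD8- cells under both labels, on 21 and 59 UMIs, with intervals that overlapped that of the next class. Across the CD8 set Bax was at 80.7 and 78.7 CPM in the thymus, 58.7 and 91.5 CPM in the spleen and 186 and 224 CPM in the tumor, with spleen over thymus at -0.46 (-0.83 to -0.10) under the label Pdcd1fl/fl and 0.22 (0.07 to 0.36) under Pdcd1 cKO and tumor over spleen at 1.67 (1.33 to 2.02) under the label Pdcd1fl/fl and 1.29 (1.15 to 1.43) under Pdcd1 cKO. The difference between tumor and spleen was past 2-fold under both labels. Cells of the melanoma list had 229 and 279 CPM of Bax, and cells of the T cell list 184 and 224 CPM.

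Bak1 (ENSMUSG00000057789, chr17:27238784-27247983, minus strand) encodes the effector that sits in the mitochondrial membrane from the start. It was at 23.6 and 16.5 CPM in the thymus, 13.5 and 20.1 CPM in the spleen and 65.5 and 74.2 CPM in the tumor. The tumor libraries were high, and the intervals of neighbours among the other 4 overlapped. The genotype ratio was -0.52 (-0.80 to -0.23) in the thymus, 0.57 (0.01 to 1.18) in the spleen and 0.18 (0.02 to 0.35) in the tumor, negative in the thymus and positive in the spleen and the tumor. The spleen value rests on 30 and 179 UMIs and was -0.46 with the stricter cell filter, with the sign turned. Over the CD8 set the ratios were -0.63 (-1.0 to -0.24) in the thymus, 0.87 (0.10 to 1.75) in the spleen and 0.38 (0.11 to 0.64) in the tumor. The signs in the 3 tissues were those of all kept cells. The thymic classes were at 22.8, 24.9, 19.7 and 30.2 CPM under Pdcd1fl/fl and 19.4, 18.0, 11.1 and 16.8 CPM under Pdcd1 cKO, and Dntt- CD8+ over Dntt+ CD8- was -0.21 (-1.04 to 0.57) under the label Pdcd1fl/fl and -0.80 (-1.29 to -0.32) under Pdcd1 cKO. Only the value under Pdcd1 cKO was clear of 0, and there the Dntt- CD8+ class was the lowest of the 4, with an interval that overlapped that of Dntt- CD8- cells. Between labels Bak1 differed by -0.27 (-0.65 to 0.11) in cycling and -0.74 (-1.19 to -0.28) in non-cycling cells of the thymus, negative in both. In the CD8 set, spleen over thymus was -1.12 (-2.01 to -0.31) under the label Pdcd1fl/fl and 0.38 (0.06 to 0.70) under Pdcd1 cKO, with opposite signs, and tumor over spleen 2.19 (1.43 to 3.06) under the label Pdcd1fl/fl and 1.70 (1.41 to 1.99) under Pdcd1 cKO, past 2-fold upward under both labels. Cycling over non-cycling cells of the tumor CD8 set gave 0.99 (0.53 to 1.47) for Bak1 and 0.53 (0.30 to 0.75) for Bax under Pdcd1fl/fl, and 0.28 (-0.04 to 0.60) and 0.15 (-0.02 to 0.32) under Pdcd1 cKO. Cycling cells were 37.6% and 29.6% of the tumor CD8 set and 0.232% and 0.181% of the splenic one. The rule asks for 3 UMIs at any depth, and the median depth of these sets was 11055.5 and 9183.5 UMIs in the tumor against 1374 and 1686 in the spleen, so these shares of cells also depend on depth. The 6 cycling genes summed there to 192 and 179.7 CPM in the tumor and 36.9 and 25.9 CPM in the spleen. With non-cycling tumor cells alone, chosen after seeing the data, tumor over spleen was 1.37 and 1.22 for Bax and 1.59 and 1.57 for Bak1.

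**Figure D4:**
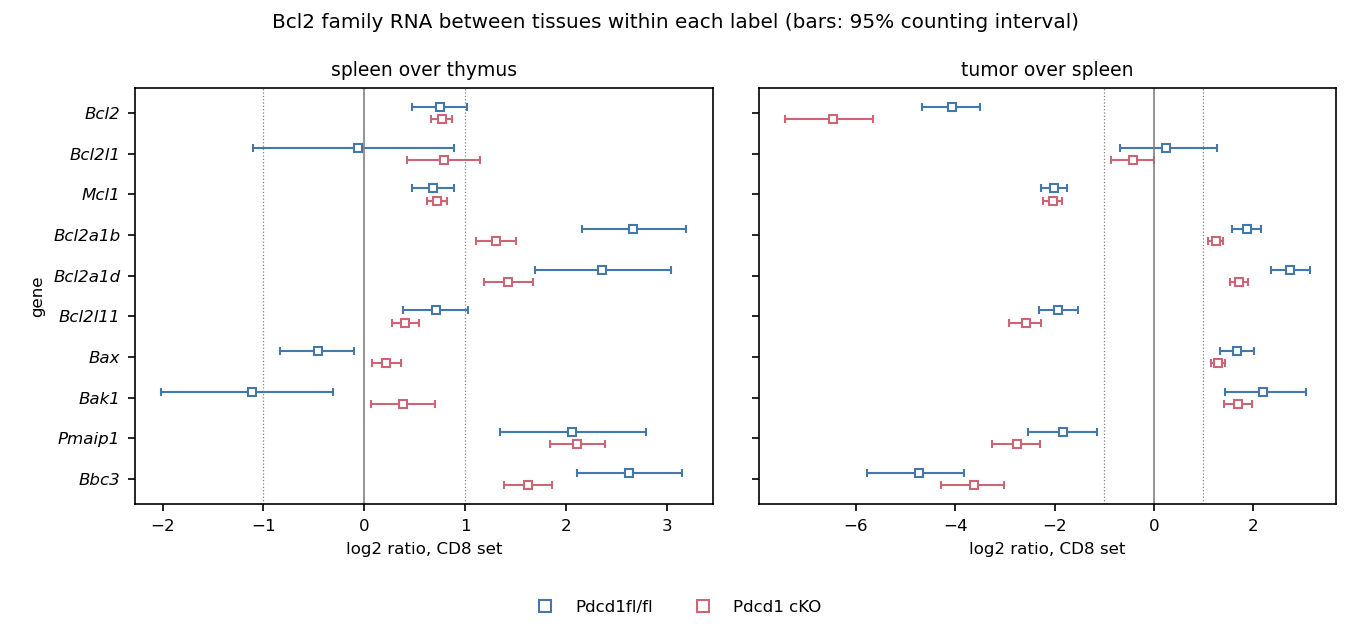
Log2 ratio (horizontal axis) between tissues in the CD8 set for each gene, spleen over thymus on the left and tumor over spleen on the right, in blue for the label Pdcd1fl/fl and in red for Pdcd1 cKO, with bars for 95% counting intervals and dotted lines at 2-fold. From spleen to tumor, Bcl2, Mcl1, Bcl2l11, Pmaip1 and Bbc3 go down and Bcl2a1b, Bcl2a1d, Bax and Bak1 go up under both labels.

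The members were next counted as a group, with a ratio past 2-fold in either direction as the threshold and the share of all genes with at least 100 UMIs past it as the background. Between labels in the thymus, 2 of 10 members, Bcl2a1b and Bcl2a1d, passed in all kept cells against 7.69% of 10380 genes, and the same 2 passed in the CD8 set against 6.84% of 9154. The 2 of 10 are above that background, but they are near-identical copies whose reads cannot be fully told apart. In non-cycling cells, chosen after seeing the data, 0 members passed against 8.88% of all genes, and cycling cells were 42.4% and 19.4% of the thymic CD8 set. Among all kept non-cycling cells Bcl2a1b and Bcl2a1d were just short of the threshold. In the spleen 0 of 10 passed in all kept cells against 5.75% of 7843 genes, and 0 in the CD8 set against 6.72% of 7066. In the tumor 1 passed, Bcl2, against 11.6% of 9035 genes in all kept cells, and 1, again Bcl2, against 5.68% of 4897 in the CD8 set. All 10 members had the 100 UMIs of the background in thymus and spleen, and in the tumor 9 in all kept cells, of which 1 passed, and 7 in the CD8 set, of which 0 passed. The spleen and tumor counts were thus near their backgrounds. In the spleen Bcl2l1 stood at 0.99, and the count was 1 with no cell filter, against 6.12% of all genes, and 2 with the stricter one, against 7.73%. The median member ratio was 0.63, 0.44 and 0.07, against -0.07, 0.17 and -0.22 over all genes, so the member median lay above that of all genes in each tissue. Within the CD8 set the medians were 0.44, 0.44 and -0.10 for the members and -0.18, 0.17 and 0.08 for all genes, so there the tumor member median lay below. Leaving mitochondrial, ribosomal protein and Malat1 UMIs out of the totals moved all ratios by 0.18 in the thymus, -0.14 in the spleen and 0.00 in the tumor for all kept cells, and by 0.20, -0.13 and -0.13 in the CD8 set.

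Between thymic classes (Dntt- CD8+ over Dntt+ CD8-), 5 of 10 members were past 2-fold under Pdcd1fl/fl against 19.3% of 4515 genes: Bcl2, Bcl2a1b, Bcl2a1d, Pmaip1 and Bbc3, all upward. Only 4 members had the 100 UMIs that the background asks for, and 1 of those passed, a share near the background. Under Pdcd1 cKO 5 of 10 passed against 20.3% of 8083 genes, Bcl2l1, Bcl2a1b, Bcl2a1d, Pmaip1 and Bbc3, and Bcl2 stood at 0.99, just short of the threshold. Of the 9 members with 100 UMIs there, 4 passed, a share above the background. The count depended on the cells: that of 5 in 10 fell to 3 with classes from thinned cells, where 16.9% of all genes passed, and to 2 in non-cycling cells, where 15.6% did. The median member ratio was 1.13 and 1.00, against -0.08 and -0.26 over all genes. Spleen over thymus in the CD8 set had 4 members past 2-fold upward, Bcl2a1b, Bcl2a1d, Pmaip1 and Bbc3, and 1 downward, Bak1, under Pdcd1fl/fl, against 33.5% of 5788 genes in either direction. Under scaling by the median of ratios, Bcl2 (1.18), Mcl1 (1.11) and Bcl2l11 (1.14) were also past 2-fold upward under that label. Bak1, at -0.68, was then not past it. Under Pdcd1 cKO it had the same 4 upward and none downward, against 20% of 9669 genes. Among members with 100 UMIs, 3 of 7 passed under Pdcd1fl/fl and 4 of 10 under Pdcd1 cKO, above the background in both, by less under Pdcd1fl/fl. Against Dntt- CD8+ thymic cells, chosen after seeing the data, the count under Pdcd1 cKO was 2 of 10, where 11% of all genes passed. Under Pdcd1fl/fl, with 12.1% of all genes past it, the 4 upward members stayed past 2-fold and Bak1 did not. The levels in spleen and in these thymic cells were 79.7 and 33.2 CPM for Bcl2a1b and 42.0 and 19.7 for Bcl2a1d. They were 31.9 and 13.5 CPM for Pmaip1, 78.9 and 21.8 for Bbc3 and 10.9 and 19.7 for Bak1. Tumor over spleen in the CD8 set moved the most members: 9 of 10 under Pdcd1fl/fl against 50.8% of 3993 genes, and 9 of 10 under Pdcd1 cKO against 57.8% of 7907. Under both labels 4 rose, Bcl2a1b, Bcl2a1d, Bax and Bak1, and 5 fell, Bcl2, Mcl1, Bcl2l11, Pmaip1 and Bbc3, with Bcl2l1 between them. Among members with 100 UMIs, 8 of 8 and 9 of 10 passed, shares above the background. The member median was -0.79 and -1.23, against -0.16 and -0.83 over all genes, so over all genes too the median was below 0, further under Pdcd1 cKO. Relative to that median the rise of Bax under Pdcd1 cKO was 2.12 and the fall of Mcl1 -1.20. Leaving out mitochondrial, ribosomal protein and Malat1 UMIs moved the ratios under the 2 labels by 0.06 and 0.14 between thymic classes, 0.20 and -0.14 for spleen over thymus and 0.10 and 0.11 for tumor over spleen.

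Beside the 10 members, 62 other genes of the pathway were read in 4 lists, counting those with at least 20 UMIs in the 2 groups together and those past 2-fold. Of all genes with as many UMIs, 6.46% and 6.56% were higher and lower by 2-fold between labels in the thymic CD8 set, 10.6% and 2.93% in the splenic and 9.54% and 4.33% in the tumor CD8 set. Between thymic classes these shares were 14.2% and 11% under Pdcd1fl/fl and 8.53% and 16.8% under Pdcd1 cKO, for spleen over thymus 8.58% and 28.2% and 11.6% and 13.6%, and for tumor over spleen 16.4% and 41.1% and 14.5% and 43.5%, and the lists are read against them. The rest of the Bcl2 family (15 genes) had, between labels in the CD8 set, 1 higher and 1 lower of 9, median 0.14, in the thymus, 2 higher and 0 lower of 6, median 0.17, in the spleen, and 1 higher and 0 lower of 7, median 0.14, in the tumor. The extremes were Bcl2a1a at 1.62 and Bad at -1.78 in the thymus, Bid at 2.10 on 5 and 113 UMIs and Bad at 1.02 in the spleen, and Bnip3 at 1.33 in the tumor. Bad encodes a BH3-only partner of Bcl2 and Bcl2l1, and its level was 64.6 and 18.8 CPM in the thymic CD8 set, low under Pdcd1 cKO. The same list had 0 higher and 2 lower of 5, median -0.05, and 1 higher and 2 lower of 9, median -0.67, between thymic classes under Pdcd1fl/fl and Pdcd1 cKO, 1 higher and 2 lower of 6, median -0.32, and 2 higher and 2 lower of 10, median -0.08, for spleen over thymus, and 2 higher and 1 lower of 6, median 0.72, and 2 higher and 0 lower of 7, median 0.50, for tumor over spleen. Bcl2a1a moved with the copies described above, by 3.21 and 1.72 from thymus to spleen and by 3.02 and 2.42 from spleen to tumor. Bid, a BH3-only gene, was lower in spleen than in thymus under Pdcd1fl/fl, at -2.92, and Bmf, another, under Pdcd1 cKO, at -2.72.

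The apoptosome, the caspases and their inhibitors (22 genes) act downstream of the members. Between labels in the CD8 set this list had 0 higher and 3 lower of 22, median -0.08, in the thymus, 0 higher and 3 lower of 21, median 0.01, in the spleen, and 2 higher and 0 lower of 21, median 0.03, in the tumor. Thymic Cycs, the gene for cytochrome c, was at -1.26, and Birc5, also a gene of dividing cells, at -1.23. Between thymic classes it had 2 higher and 8 lower of 21, median -0.72, under Pdcd1fl/fl and 1 higher and 7 lower of 22, median -0.67, under Pdcd1 cKO, against 11% and 16.8% of all genes that were lower, with the inhibitor gene Birc3 upward in both, at 2.00 and 1.92, and the mitochondrial channel gene Vdac1 downward, at -1.45 and -1.53. Spleen over thymus gave 1 higher and 7 lower of 21, median -0.85, and 1 higher and 5 lower of 22, median -0.43, with Birc5 lowest at -4.24 and -4.04. Tumor over spleen gave 3 higher and 5 lower of 21, median -0.25, and 3 higher and 4 lower of 21, median 0.04, with Birc5 highest, at 3.58 and 4.98, and Birc3, Birc2 and Birc6 downward, Birc3 at -2.99 and -3.51. The p53 list (8 genes) holds Trp53 itself and genes that p53 induces beside Bbc3, Pmaip1 and Bax. Between labels it had 0 higher and 0 lower of 7, median 0.11, in the thymus, 1 higher and 0 lower of 8, median 0.51, in the spleen, where Cdkn1a was at 1.02, and 0 higher and 1 lower of 8, median -0.18, in the tumor, where Trp53inp1 was at -1.19. Between thymic classes it gave 1 higher and 0 lower of 6, median -0.45, and 0 higher and 1 lower of 7, median 0.04, with Cdkn1a at -0.68 and -1.87. For spleen over thymus it gave 0 higher and 0 lower of 6, median -0.07, and 2 higher and 0 lower of 8, median 0.33, and for tumor over spleen 1 higher and 3 lower of 6, median -1.09, and 0 higher and 4 lower of 8, median -1.15, with Mdm2 at -2.68 and -2.61.

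The list upstream of the family (17 genes) holds cytokine receptors and their signals, FoxO and NF-kB factors and regulators of Mcl-1 turnover. Between labels in the CD8 set it had 0 higher and 0 lower of 17, median 0.12, in the thymus, 2 higher and 0 lower of 16, median 0.19, in the spleen, where Nr4a1 was at 1.74 and Il2rg at 1.10, and 0 higher and 1 lower of 16, median -0.16, in the tumor, where Huwe1 was at -1.12. Between thymic classes it had 9 higher and 0 lower of 16, median 1.33, under Pdcd1fl/fl and 5 higher and 0 lower of 17, median 0.61, under Pdcd1 cKO, against 14.2% and 8.53% of all genes that were higher, with Il7r, Il2rb and Pim2 among the highest under both labels. Il7r, the receptor gene for interleukin 7, was at 2.65 and 2.45, upward like Bcl2. Spleen over thymus gave 5 higher and 0 lower of 16, median 0.64, and 6 higher and 1 lower of 17, median 0.53, with Il2rb at 2.21 and 2.41. Tumor over spleen gave 0 higher and 14 lower of 16, median -2.46, and 0 higher and 15 lower of 16, median -2.69, against 41.1% and 43.5% of all genes that were lower by 2-fold. The share of the list that was lower was thus far above that of all genes. Il7r was at -5.50 and -6.21 there and Nr4a1 at -3.32 and -5.21, and Il2rb was the one measured gene of the list that was higher in the tumor under both labels, at 0.63 and 0.65.

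Last, the genes whose pattern was most like that of a prosurvival member were ranked by Pearson's r of log2 levels (CPM with 1 added) over 12 points, the 8 thymic class sums and the 4 CD8 sets of spleen and tumor, among 7303 genes with at least 500 UMIs. The points share 6 libraries, so r is a description. Most like Bcl2 were Kpna4 (r 0.99), Ets1 (r 0.99) and Spty2d1 (r 0.99). Most like Bcl2l1 were Flt3l (r 0.93) and Lcp1 (r 0.90), with lower values than for Bcl2. For Mcl1 they were Gmip (r 0.99), Ikbkb (r 0.99) and Arhgef1 (r 0.98), and for Bcl2a1b S100a10 (r 0.97), Klrc1 (r 0.97) and Glipr1 (r 0.97).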

How the data were processed

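RNA was measured in single cells of 6 PIPseq v3 libraries, 1 for each genotype and tissue. The deposited matrices hold raw UMI counts per gene and barcode, which the authors made with the PIPseq pipeline v3.2 on GRCm39, and their own steps used Seurat 4.3.0. The integer counts were summed over the kept cells of each library, over its CD8 set, and over the 4 thymic classes. Exact Poisson intervals were given to levels and exact conditional binomial intervals to ratios, with sums under 3 UMIs kept as they are and a floor of 3 UMIs in place of 0. No doublets were searched for or removed. Lineages were called from lists of T cell, B cell, myeloid, granulocyte progenitor, erythroid and melanoma markers, and described by NK cell, immature thymocyte, mature T cell, cytotoxic and cycling lists. The 10 members and all lists were chosen before the data were examined here, but with earlier results of these data known. The genes named were all 10 members, the 3 highest and 3 lowest of each related list at most, and at most the 3 genes most like each of 4 members. Some genes under this rule are not reported here. Alternatives changed the cell filter, the cells used, the scaling, the weight of each cell and the thymic classes. No library was left out. The annotation release and the strandedness of the counting are not given, so RNA of genes on the opposite strand cannot be told apart from that of a member. Python 3.11.15, numpy 2.4.6, scipy 1.17.1, pandas 2.3.3 and matplotlib 3.10.9 were used.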

Additional observations from a re-analysis of the deposited data

Results flagged for a closer look

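These results moved in opposite directions between tissues, the library labelled Pdcd1 cKO being higher than the library labelled Pdcd1fl/fl in one tissue and lower in another, each with an interval clear of 0. With 1 library per label and tissue, no difference between tissues was tested. In all kept cells the log2 ratio of Bcl2 was 0.59 in the thymus and 0.54 in the spleen against -1.74 in the tumor. That of Bak1 was -0.52 in the thymus against 0.57 in the spleen and 0.18 in the tumor. That of Bbc3 was 0.66 in the thymus against -0.64 in the spleen.

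In the CD8 set the same held for Bcl2, at 0.59 and 0.61 against -1.80 in the tumor, for Bak1, at -0.63 in the thymus against 0.87 and 0.38, and for Bbc3, at 0.47 in the thymus against -0.52 in the spleen. There the thymus and the tumor also differed in sign for Bcl2a1b, 1.18 against -0.80, for Bcl2a1d, 1.20 against -0.76, for the sum of the Bcl2a1 copies, 1.22 against -0.72, and for Bcl2l11, 0.40 against -0.56. These differences were not tested either. With the stricter cell filter the spleen ratio of Bak1 in all kept cells was -0.46 and that of Bbc3 0.03, each with the sign turned. In non-cycling cells of the thymic CD8 set, chosen after seeing the data, the ratio was 0.39 for Bcl2, 0.71 for Bcl2a1b, 0.80 for Bcl2a1d, 0.20 for Bcl2l11 and 0.14 for Bbc3, each nearer to 0, and in its cycling cells -0.01, 0.68, 0.10, 0.44 and 0.40. The thymic ratio of Bak1 over all kept cells went the other way, further from 0 in non-cycling cells.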

How the results depend on the processing

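The ratios of the 10 members between labels in all kept cells and in the tumor CD8 set, between thymic classes and between tissues were computed again with other cell filters, other cells, other scalings, other thymic classes and each cell weighted equally, which gave 570 values. Of these, 464 lay within the counting interval of the reported value and 106 outside it, and 538 had its sign and 32 the opposite one. No ratio past 2-fold changed sign under any of them. The ratios between labels in the thymic and splenic CD8 sets were computed again only under the other scalings and, in the thymus, by cycling, and under the scalings those of Mcl1 and Bax in the thymus and of Bcl2l11 in the spleen changed sign. The number of members past 2-fold between labels in the spleen, 0 as reported, was 1 with no cell filter (6.12% of all genes passed), 2 with the strict filter (7.73%) and 1 without the cell with the most UMIs of the gene. In the thymus, 2 became 0 in non-cycling cells, chosen after seeing the data (8.88% of all genes, 7.69% as reported), where Bcl2a1b and Bcl2a1d were just short of 2-fold. Between thymic classes the 5 members under Pdcd1fl/fl became 3 with classes from cells thinned to 1000 UMIs (8.22% of all genes, 19.3% as reported), and the 5 under Pdcd1 cKO became 3 with those classes (16.9%) and 2 in non-cycling cells (15.6%, 20.3% as reported). For spleen over thymus under Pdcd1 cKO, 4 became 2 against thymic Dntt- CD8+ cells, chosen after seeing the data (11% of all genes, 20% as reported). Under Pdcd1fl/fl Bak1 no longer passed 2-fold against those cells (12.1% of all genes, 33.5% as reported). Scaling by the median of ratios there also took Bak1 out and added Bcl2, Mcl1 and Bcl2l11 upward. The share of all genes past 2-fold thus also fell in these alternatives that changed the cells between classes and between tissues. It rose in non-cycling cells between thymic classes under Pdcd1fl/fl, to 21.3% from 19.3%, where Bcl2 was below 2-fold. In the CD8 set the share of Bcl2 among Bcl2 and Bcl2l1 UMIs was 42.3% in the tumor library labelled Pdcd1fl/fl, and its share among Bcl2 and Bcl2l11 UMIs was 60.6% in the thymic library labelled Pdcd1 cKO and 24.0% and 11.8% in the tumor libraries. For each of these shifts the cause was not tested.

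No paired analysis was possible because each genotype and tissue has 1 library. Depth limits the members with few UMIs most, such as Bcl2l1 and Bak1 in the spleen library labelled Pdcd1fl/fl and Bcl2 and Bbc3 in the tumor libraries, and a difference within their intervals cannot be seen.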

Other observations

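The lists used to call or describe cells, summed in all kept cells, were as follows. The 6 mature T cell markers were at 523 and 873 CPM in thymus, 2357 and 2524 in spleen and 396 and 402 in tumor, and the 6 cytotoxic markers at 538 and 1189 CPM in thymus, 5321 and 10027 in spleen and 1287 and 4465 in tumor, led by Ccl5 in thymus and spleen and by Nkg7 in the tumor. Within the tumor CD8 set the mature T cell list was at 884 and 573 CPM, of which Ms4a4b was at 486 and 485 CPM. The 8 T cell markers were at 5954 and 5749 CPM in thymus, 4393 and 5787 in spleen and 2586 and 4708 in tumor, the 6 cycling genes at 811 and 511 CPM in thymus, 38.3 and 32.3 in spleen and 176 and 158 in tumor, the 12 myeloid markers at 25.7 and 27.2 CPM in thymus, 11.7 and 27.9 in spleen and 689 and 1389 in tumor and the 4 NK cell markers at 5.63 and 11.8 CPM in thymus, 8.55 and 14.1 in spleen and 109 and 324 in tumor. The 4 B cell markers were at 14.2 and 7.94 CPM in thymus, 12.2 and 16.0 in spleen and 2.77 and 2.4 in tumor, the 4 erythroid markers at 0.313 and 10.1 CPM in thymus, 0.901 and 29.2 in spleen and 1.39 and 0.631 in tumor and the 3 granulocyte progenitor markers at 0.313 and 0.522 CPM in thymus, 1.80 and 68.5 in spleen and 2.24 and 1.14 in tumor. The part of these cells in the levels of the members was not tested.

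Some members overlap a gene on the opposite strand, whose UMIs over all 6 libraries were 23 for D630008O14Rik at Bcl2, 28 for 4930579C12Rik at Bcl2a1b, 79 for Gm10634 at Bcl2a1d and 412 for Ggnbp1 at Bak1. The part of such RNA in the counts of the members was not tested.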
